A study of Triticum aestivum with 23 samples.

Results

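The genes described here are 31 members of the brassinosteroid (BR) pathway of hexaploid wheat. They are what is left of the 76 genes in the study's pathway list once the BRI1, DWARF4, CPD, BR6ox, BZR, BKI1, CDG1, FACKEL and DWF7 genes are set aside. They were taken by gene identifier from a table of 266760 gene models, and not by their values. The families set aside include some that the study reports as changed in these mutants. They form 10 families and 11 groups of homoeologues, the matching copies that wheat carries in its A, B and D genomes. The sterol steps hold 9 members (TaHYD1, TaDWF5 and TaDWF1), the BR-specific steps hold 9 (TaDET2, TaD11 and TaD2), and signalling holds 13 (TaBAK1, TaBSK1, TaBSU1 and TaBIN2). TaBAK1 has 2 groups, on chromosomes 7 and 2, and the list gives only B and D copies of TaBSK1 and TaBSU1.

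RNA-seq was run on the above-ground tissue of seedlings at the stage of 2 leaves, grown at 21 °C in 24 h light, in 23 libraries of 6 genotypes. All derive from the wheat cultivar Cadenza, and the mutations are in TaBRI1, the BR receptor gene. The triple mutant tabri1-a.1bd (n = 3) carries premature stop codons in the A, B and D copies. In tabri1-a.2bd (n = 4) the same B and D stop alleles stand beside an amino acid substitution in the A copy, found by mutagenising tabri1-bd again, and tabri1-a.3bd (n = 4) has a different substitution from the same screen. The double mutant tabri1-bd (n = 4) has the B and D stop alleles and an intact A copy. Cadenza (n = 4) is the parent cultivar, and TaBRI1-NS (n = 4) is the null segregant, a sister line without the mutations from the backcrossed population that gave tabri1-a.1bd and tabri1-bd. Each mutant genotype is thus 1 line with its own chemically mutagenised background, and the lines with a substitution were backcrossed less than the others. Several seedlings were pooled for each replicate, so plant-to-plant spread was not measured. In whole shoots, a lower level in each cell and fewer of the cells that use a gene cannot be told apart.

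BRs are plant steroid hormones that promote growth. In plants the sterol precursors are made by a chain of enzymes that includes a sterol isomerase (HYD1) and the reductases DWF5 and DWF1, and loss of DWF1 or DWF5 in Arabidopsis gives dwarf plants. DET2 is a steroid reductase that opens the BR-specific route, and D2 and D11 are cytochrome P450 enzymes known from dwarf mutants of rice. At the cell surface BRI1 binds the hormone with its co-receptor BAK1 and passes the signal to the cytoplasmic kinase BSK1 and the phosphatase BSU1, which switch off the kinase BIN2, the brake on the pathway in Arabidopsis. When the signal is strong, plants lower the transcripts of several synthesis genes, as is known in Arabidopsis and rice.

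Values are TPM, a transcript level scaled for gene length and library size, so levels of different genes can be set side by side. Whole reads recovered from the TPM steps gave 22528350 to 38288584 reads per library. A gene was tested if it reached 0.5 TPM in at least 3 libraries, which 83495 genes and 30 of the 31 members did. TaBAK1-A1 did not, with at most 0.515 TPM and 12 to 65 reads in any library. Changes are log2 differences of TPM + 0.5 with their standard error (SE), and a gene was called at an adjusted p of 0.05 or less over all genes tested. Because 0.5 is added, the change of a gene near or below 1 TPM is understated.

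1 library touches most of what follows. Replicate 1 of tabri1-a.1bd correlated with its 2 fellow replicates at r of 0.844 to 0.876 across genes, whereas the other pairs within a genotype lay at 0.946 or above. On the scale of TPM + 0.5, among the 30 tested members 10 were more than 2-fold lower in replicate 1 than in both other tabri1-a.1bd libraries, and 0 were more than 2-fold higher, against 13.2% and 4.56% of all genes tested. These 10 comprised TaDWF1-B and -D, TaDET2-B and -D, and all copies of TaD11 and TaD2. The range of the tabri1-a.1bd libraries exceeded 2-fold for 14 of the 30 members (37.5% of all genes), against 0 to 2 members in each other genotype. The cause was not tested. Results for tabri1-a.1bd are therefore given with this library and without it, which leaves 2 libraries in that genotype.

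In tabri1-a.1bd against TaBRI1-NS, 9 of 30 members were called, where 43.8% of all genes tested were. Of these, 4 were higher (24.5% of all genes) and 5 were lower (19.3% of all genes). The called members were TaHYD1-A, TaBSK1-B, TaBSU1-B and TaBSU1-D, which rose, and TaDWF5-A, TaDET2-A, TaDET2-D, TaD2-A and TaD2-B, which fell. The median log2 change was 0.16 over the members and 0.10 over all genes. Without replicate 1, 15 members were called, where 41.3% of all genes were, with 11 higher (24.7% of all genes) and 4 lower (16.6% of all genes).

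In tabri1-a.2bd 0 members were called against TaBRI1-NS by limma, where 7.46% of all genes were, with 5 members at an unadjusted p below 0.05 and 1 called by limma voom on recovered reads. The count was also 0 for tabri1-a.3bd (2.3% of all genes, 4 members at an unadjusted p below 0.05, 0 by voom). For tabri1-bd it was 0 (0.126% of all genes, 0 unadjusted, 0 by voom), and for Cadenza it was 0 (2.23% of all genes, 2 unadjusted, 0 by voom). Leaving out replicate 1 of tabri1-a.1bd, which enters the common estimate of the spread, gave 6 calls in tabri1-a.2bd (14% of all genes) and 2 for tabri1-a.3bd (5.77% of all genes), all higher. The libraries did not overlap those of TaBRI1-NS for 10 members in tabri1-a.1bd (39.7% of all genes), 6 for tabri1-a.2bd (16.8%), 4 for tabri1-a.3bd (11.3%), 3 for tabri1-bd (4.99%) and 1 for Cadenza (12.5%). The genotypes share the TaBRI1-NS libraries, so the comparisons are not independent of each other.

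**Figure D1:**
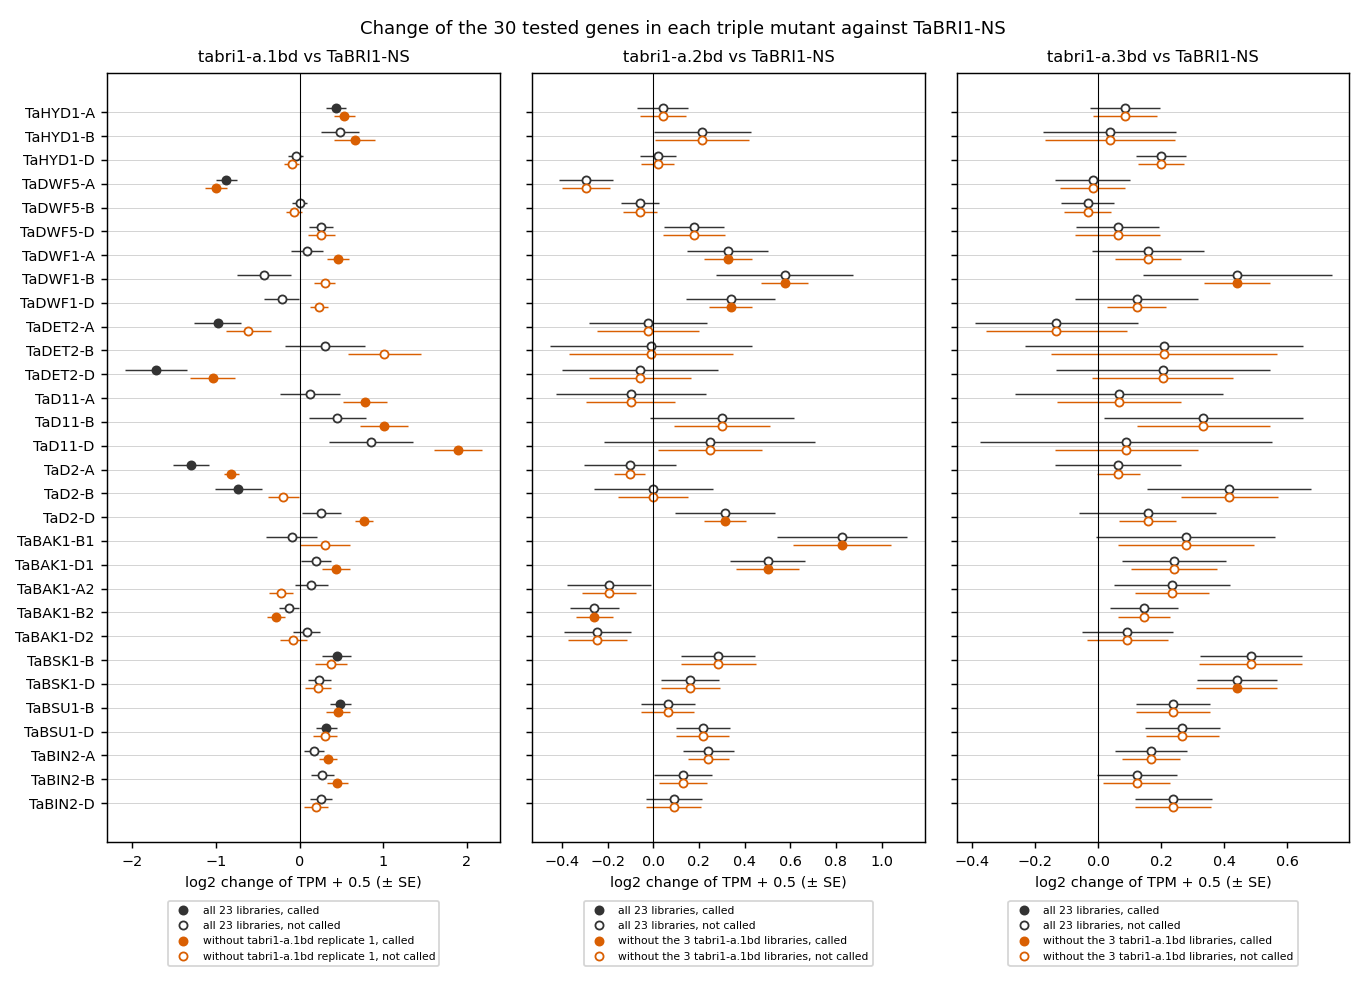
Log2 change of TPM + 0.5 (x axis, bars ± SE) for the 30 tested genes in each triple mutant against TaBRI1-NS, with the x range set for each panel; filled points are called. Dark grey uses all 23 libraries and orange leaves out replicate 1 of tabri1-a.1bd (left panel) or all 3 tabri1-a.1bd libraries (other panels). In the left panel TaDWF5-A, TaDET2-D and TaD2-A are filled and negative in both colours, while the TaD11 copies and TaD2-D are open in dark grey and filled in orange.

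Of the 9 sterol genes, 2 were called in tabri1-a.1bd against TaBRI1-NS (43.8% of all genes), both of them A copies, with TaDWF5-A lower and TaHYD1-A higher. TaDWF5-A (TraesCS3A03G1145800), which encodes a sterol reductase, had 9.58, 6.63 and 8.0 TPM in tabri1-a.1bd, against 13.8, 16.0, 17.4 and 13.3 TPM in TaBRI1-NS. All 3 mutant libraries lay below every library of the other genotypes, whose range was 11.3 to 19.2 TPM. The log2 change was -0.87 (SE 0.13, adjusted p = 1.1e-05), and it was -1.0 and called without replicate 1. TaDWF5-B ranged from 28.4 to 34.1 TPM in tabri1-a.1bd, against 29.3 to 35.1 TPM in TaBRI1-NS, with a log2 change of 0.00 (SE 0.09). TaDWF5-D had 16.4, 16.0 and 17 TPM in tabri1-a.1bd, against 15.6, 13.3, 13.8 and 12.1 TPM in TaBRI1-NS, a log2 change of 0.26 (SE 0.14) that was not called although the libraries did not overlap. The 3 copies together gave 55.6 ± 3.9 TPM in tabri1-a.1bd (SD, n = 3) and 59.9 ± 4.7 TPM in TaBRI1-NS (SD, n = 4), and the ranges of the sums overlapped.

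TaHYD1-A (TraesCS3A03G0174700), a sterol isomerase gene, rose in tabri1-a.1bd. It had 25.9, 34.6 and 29.8 TPM there, against 22.1, 21.4, 25.5 and 19.5 TPM in TaBRI1-NS. The groups did not overlap, and the log2 change was 0.43 (SE 0.12, adjusted p = 0.00624). Without replicate 1 it was 0.53 (SE 0.13) and called. TaHYD1-D, the most abundant copy, held 34.8 to 39.2 TPM in tabri1-a.1bd, against 36.2 to 39.5 TPM in TaBRI1-NS. TaHYD1-B was less abundant, at 2.73, 4.0 and 4.31 TPM in tabri1-a.1bd, against 2.07 to 2.96 TPM in TaBRI1-NS. It was not called with all libraries (log2 change 0.49, SE 0.23) but was without replicate 1 (0.66, SE 0.25).

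TaDWF1, whose product acts late in sterol synthesis, held the most abundant member. TaDWF1-B (TraesCS7B03G1304200) had 12.8, 57.1 and 62.3 TPM in tabri1-a.1bd, against 52.3, 50.4, 44.2 and 46.6 TPM in TaBRI1-NS. Its level was 73.2, 71.6, 74.2 and 69.8 TPM in tabri1-a.2bd, while tabri1-a.3bd had 60.2, 71.2, 75.6 and 57.4 TPM. The tabri1-bd libraries had 65.4, 59.6, 57.9 and 62.2 TPM, while Cadenza had 39.3, 54.6, 58.9 and 49.9 TPM. Apart from replicate 1 of tabri1-a.1bd, every mutant library was above every TaBRI1-NS library, while Cadenza overlapped TaBRI1-NS.

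With all libraries in the fit, no TaDWF1 copy was called in any mutant against TaBRI1-NS, and the SE of TaDWF1-B was 0.30 in tabri1-a.2bd, where its log2 change was 0.58 (adjusted p = 0.27). Fitted without the 3 tabri1-a.1bd libraries the change was the same and the SE was 0.10. TaDWF1-A, -B and -D were then all called higher in tabri1-a.2bd (log2 changes 0.33, 0.58 and 0.34, where 14.8% of all genes were called), and TaDWF1-B also for tabri1-a.3bd (0.44, where 6.17% were called). In tabri1-bd the libraries of all 3 copies lay above those of TaBRI1-NS without a call in either fit (0.23, 0.34 and 0.24).

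TaDWF1-D (TraesCS7D03G1291100) had 9.86, 25.7 and 25.7 TPM in tabri1-a.1bd, and its 4 tabri1-a.2bd libraries had 25.7, 27.7, 30.3 and 27.2 TPM, against 22.7, 20.1, 22.6 and 21.8 TPM in TaBRI1-NS. TaDWF1-A had 17, 33.2 and 40.3 TPM in tabri1-a.1bd, against 23.6 to 29.0 TPM in TaBRI1-NS, with a log2 change of 0.10 (SE 0.19) that was 0.46 (SE 0.13) and called without replicate 1. Between tabri1-a.1bd and tabri1-a.2bd, TaDWF1-B (log2 change -1.0, adjusted p = 0.0177) and TaDWF1-D (-0.55, adjusted p = 0.0434) were called lower in tabri1-a.1bd. Without replicate 1 those changes were -0.27 and -0.11 and were not called.

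**Figure D2:**
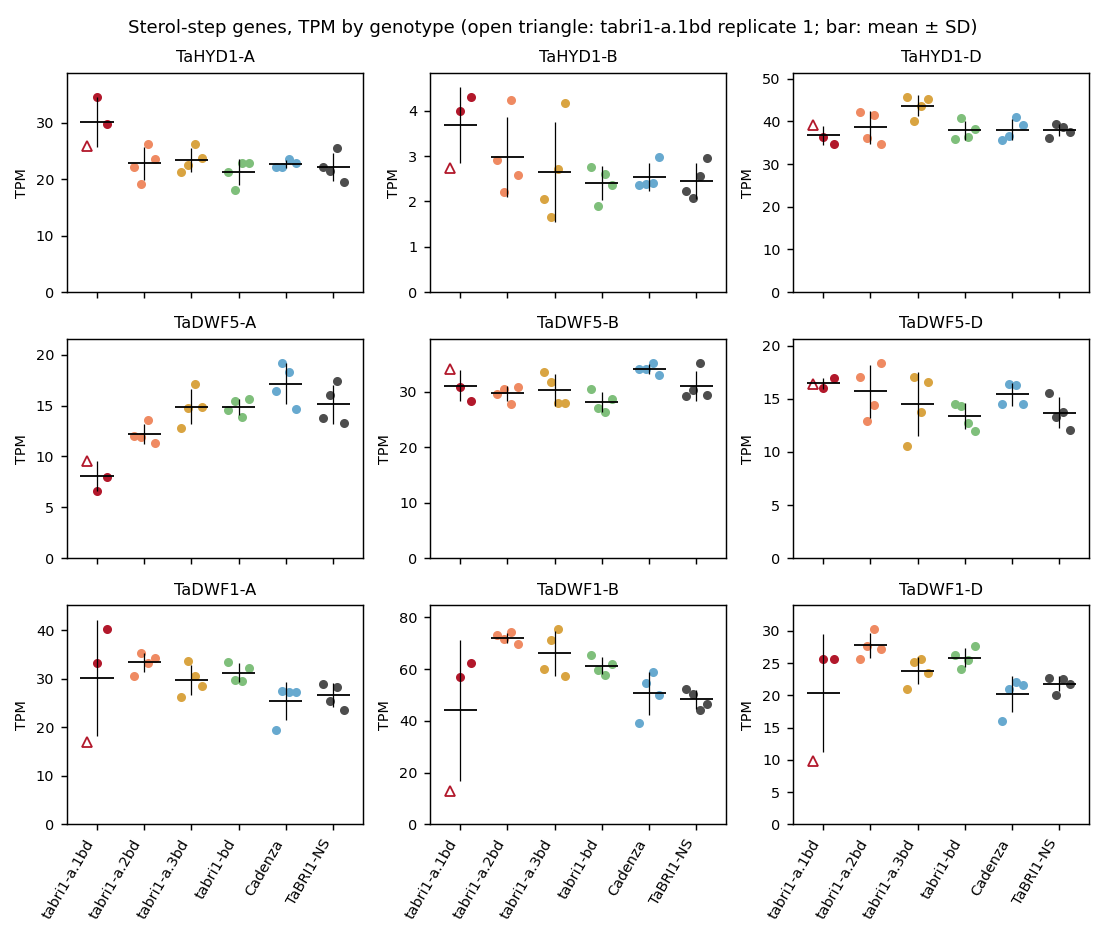
TPM of the 9 sterol-step genes (y axes, from 0) in each library of the 6 genotypes (x axis); horizontal bars are means, vertical bars are SD, and the open triangle is replicate 1 of tabri1-a.1bd. TaDWF5-A sits at 6.63 to 9.58 TPM in tabri1-a.1bd and at 11.3 TPM or above elsewhere, and the TaDWF1 triangles lie far below the other tabri1-a.1bd points.

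Of the 9 BR-specific genes, TaDET2-A, TaDET2-D, TaD2-A and TaD2-B were called in tabri1-a.1bd against TaBRI1-NS, all lower. Of all genes tested, 43.8% were called and 19.3% were called lower. TaDET2-D, TaD2-A and TaDET2-A had the largest called changes of the members with all libraries, and without replicate 1 the largest was TaD11-D, which was higher. TaDET2-D (TraesCS3D03G0796800), a steroid reductase gene, had 0.244, 2.26 and 2.86 TPM in tabri1-a.1bd, against 8.87, 5.96, 3.32 and 6.08 TPM in TaBRI1-NS. These values rest on 7, 63 and 71 reads in tabri1-a.1bd, against 105 to 235 reads in TaBRI1-NS. All 3 mutant libraries lay below all 20 libraries of the other genotypes, and the log2 change was -1.72 (SE 0.37, adjusted p = 0.000749). Without replicate 1 it was -1.04 (SE 0.27) and was called.

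TaDET2-A (TraesCS3A03G0869900) had 1.08, 3.16 and 2.61 TPM in tabri1-a.1bd, against 5.4, 5.68, 3.54 and 4.31 TPM in TaBRI1-NS. The groups did not overlap and the log2 change was -0.98 (SE 0.28, adjusted p = 0.00756), but tabri1-bd reached down to 1.8 TPM and Cadenza to 2.65 TPM. Without replicate 1 the change was -0.61 (SE 0.27) and was not called, nor was TaDET2-A called in tabri1-a.1bd against tabri1-bd. TaDET2-B had 0.365, 2.63 and 3.98 TPM in tabri1-a.1bd, against 0.847 to 1.87 TPM in TaBRI1-NS. Its log2 change was 0.31 (SE 0.48), and 1.01 (SE 0.43) without replicate 1, called in neither fit.

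TaD2-A (TraesCS3A03G0227000), a cytochrome P450 gene, had 5.15, 13.9 and 16.0 TPM in tabri1-a.1bd, against 25.3, 26.0, 29.9 and 25.5 TPM in TaBRI1-NS. No other library fell below 23.6 TPM. The log2 change was -1.30 (SE 0.22, adjusted p = 5.71e-05) and -0.81 (SE 0.09) without replicate 1, and of the 9 calls it was the 1 that all 36 alternative settings kept. TaD2-B (TraesCS3B03G0278600) had 0.63, 2.63 and 3.37 TPM in tabri1-a.1bd, against 3.38, 4.19, 3.07 and 3.33 TPM in TaBRI1-NS. Its log2 change of -0.73 (SE 0.28, adjusted p = 0.04) came to -0.19 without replicate 1 and was not called then, nor with a block on replicate number (-0.71). TaD2-D had 6.09, 19.1 and 18.1 TPM in tabri1-a.1bd, against 11.7, 10.4, 10.9 and 9.83 TPM in TaBRI1-NS. Replicate 1 thus lay below and the other 2 above all TaBRI1-NS libraries, and the log2 change was 0.26 (SE 0.24), or 0.77 (SE 0.11) and called without replicate 1.

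In tabri1-a.2bd, TaD2-D had 12.6, 13.5, 13.4 and 14.1 TPM, above all TaBRI1-NS libraries. The log2 change of 0.31 (SE 0.22) was not called, and was called, at the same size, with replicate 1 of tabri1-a.1bd left out.

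The TaD11 copies are P450 genes of low level whose tabri1-a.1bd libraries lay far apart. TaD11-D had 0.313, 4.98 and 8.56 TPM in tabri1-a.1bd, against 1.31, 1.31, 1.42 and 1.55 TPM in TaBRI1-NS. This came to 14, 217 and 331 reads in tabri1-a.1bd, against 47 to 70 reads in TaBRI1-NS. TaD11-A had 0.0375, 1.08 and 2.33 TPM in tabri1-a.1bd, against 0.615 to 0.827 TPM in TaBRI1-NS. TaD11-B had 0.0629, 0.764 and 2.07 TPM in tabri1-a.1bd, against 0.236 to 0.516 TPM in TaBRI1-NS. For each copy replicate 1 was below, and replicates 2 and 3 above, all 4 TaBRI1-NS libraries. With all libraries the log2 changes of the A, B and D copies were 0.13, 0.45 and 0.86 (SE 0.36, 0.34 and 0.50) and not called. Without replicate 1 they were 0.79, 1.01 and 1.89 (SE 0.26, 0.29 and 0.29), and all 3 were called.

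**Figure D3:**
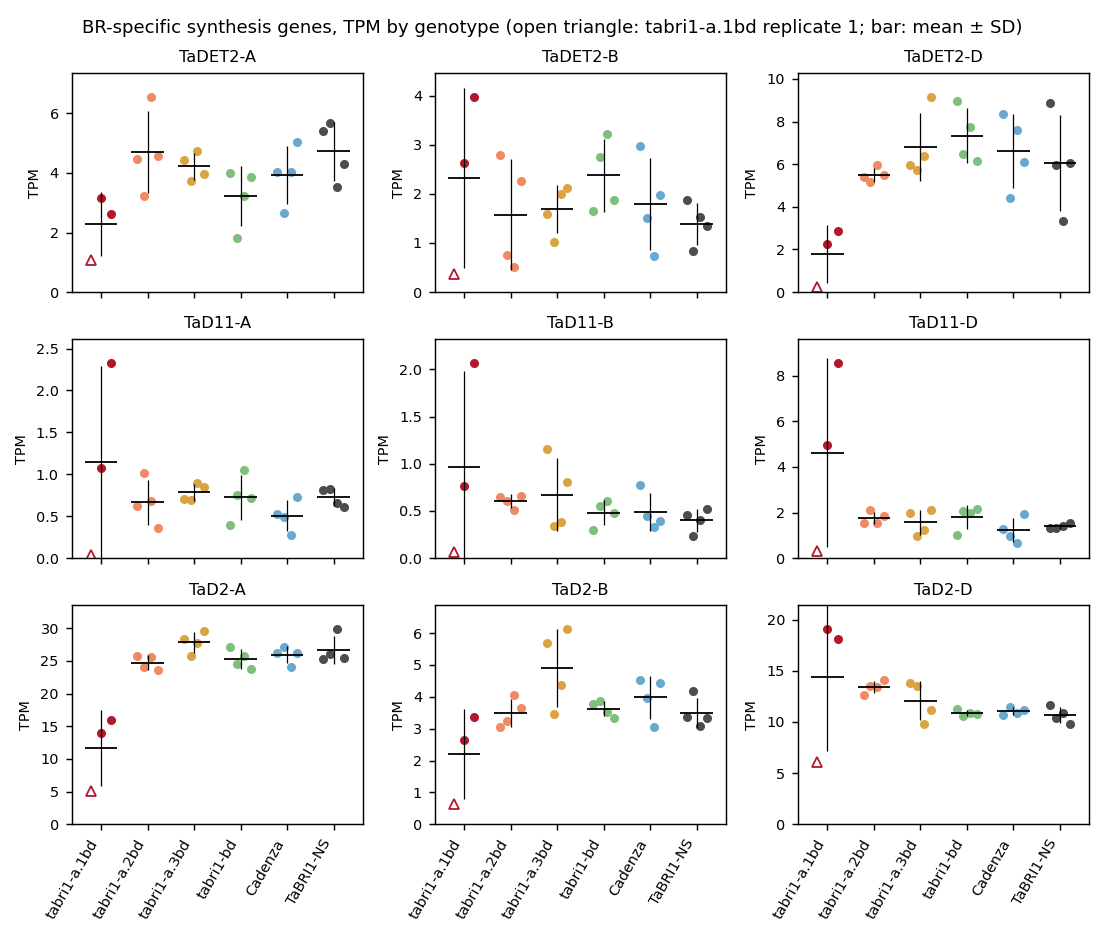
TPM of the 9 BR-specific synthesis genes (y axes, from 0) in each library of the 6 genotypes (x axis); horizontal bars are means, vertical bars are SD, and the open triangle is replicate 1 of tabri1-a.1bd. The triangle is the lowest tabri1-a.1bd point in every panel, TaD2-A and TaDET2-D are lower in all 3 tabri1-a.1bd libraries than in any other, and TaD11-D reaches 8.56 TPM in replicate 3.

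With all libraries, 6 of the 18 synthesis genes were called in tabri1-a.1bd against TaBRI1-NS, and these 6 are among the 12 that lie on chromosomes 3A, 3B and 3D, where TaBRI1 also lies. Of all genes tested on these chromosomes 45.1%, 44.9% and 45.3% were called, so 6 of 12 was near the background for both directions together. Of the 12, 5 were called lower, where 19.5%, 19.4% and 20.1% of all genes tested on these chromosomes were. Another 1 of the 12 was called higher, where 25.6%, 25.5% and 25.2% were. The difference in direction was not tested. Without replicate 1, 10 synthesis genes were called (41.3% of all genes), 7 higher (24.7%) and 3 lower (16.6%). Of these, 6 were on these chromosomes, 3 higher and 3 lower, so most were then no longer lower. The other 4 were elsewhere (the TaD11 copies and TaDWF1-A), so the calls were then not limited to chromosomes 3A, 3B and 3D. The share of all genes per chromosome was not computed for that fit. On chromosome 3A all 4 members were called with replicate 1 and 3 without it, when TaDET2-A was lost.

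The share of each homoeologue in its group's summed TPM gave a view that a common scaling of a library cannot move. TaD2-A made up 43.4%, 39.0% and 42.7% of summed TaD2 TPM in the tabri1-a.1bd libraries, against 62.6% to 68.2% in TaBRI1-NS and 57.0% to 68.2% over all 20 other libraries. TaD2-D made up 51.3%, 53.6% and 48.3% in tabri1-a.1bd, against 24.8% to 29.0% in TaBRI1-NS and at most 34.2% in any other library. Replicate 1, which had 11.9 TPM of TaD2 in all against 37.5 TPM in the highest tabri1-a.1bd library, had shares close to those of its fellow replicates. In tabri1-a.2bd the A share was 57.0% to 62.2% and the D share 30.4% to 34.2%, on the same side of TaBRI1-NS and not overlapping it.

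TaDWF5-A had 12.4% to 15.9% of its group in tabri1-a.1bd, against 23.6% to 26.8% in TaBRI1-NS and 18.6% to 29.0% in the 20 other libraries. TaDET2-D had 14.4% to 30.3% in tabri1-a.1bd, against 39.7% to 55.0% in TaBRI1-NS and at least 39.7% elsewhere. TaD11-D had 66.0% to 75.7% in tabri1-a.1bd, against 50.8% to 57.9% in TaBRI1-NS and at most 64.6% elsewhere. In tabri1-a.1bd replicate 1 the A, B and D copies had 25, 7 and 7 reads for TaDET2. They had 3, 6 and 14 reads for TaD11, so the shares of both groups in that library are uncertain. These shares are descriptions, without a test. For no other copy did all 3 tabri1-a.1bd libraries lie outside the range of the 20 other libraries. TaDWF1-A had 42.9% in replicate 1, with 28.6% and 31.4% in replicates 2 and 3, against at most 29.7% elsewhere.

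**Figure D4:**
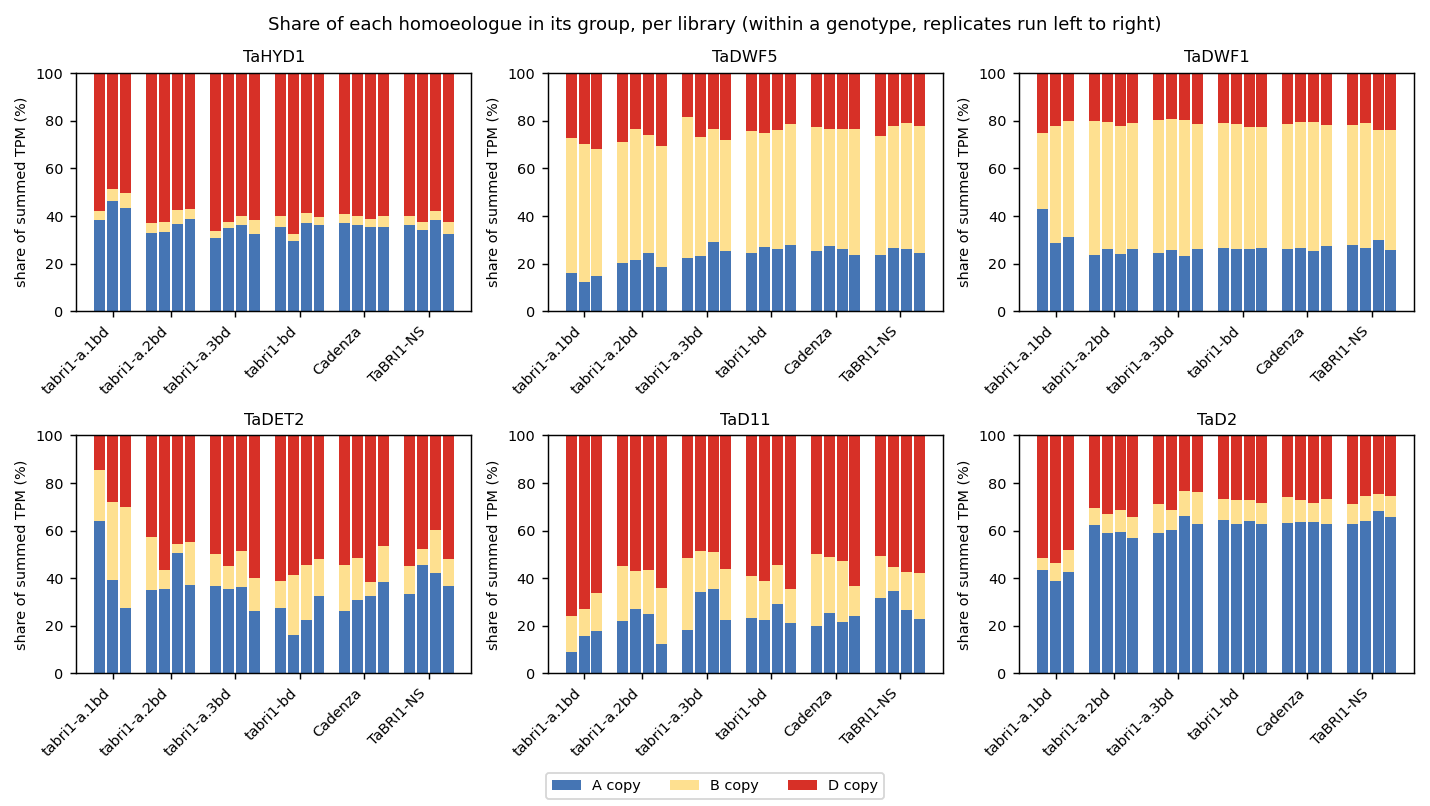
Share of summed TPM (y axis, percent) held by the A, B and D copy of each synthesis gene in every library, 1 bar per library, grouped by genotype (x axis). The TaD2 panel shows the A copy at 39.0% to 43.4% in tabri1-a.1bd and at 57.0% or more in all other libraries, with replicate 1 at the left of the tabri1-a.1bd bars like its fellows.

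Of the signalling genes, TaBSU1-B, TaBSU1-D and TaBSK1-B were called in tabri1-a.1bd against TaBRI1-NS, all higher. Of all genes tested, 43.8% were called and 24.5% were called higher. TaBSU1-B (TraesCS1B03G0288400), a phosphatase gene, had 3.01, 2.97 and 2.71 TPM in tabri1-a.1bd, against 1.99, 1.87, 2.14 and 1.69 TPM in TaBRI1-NS. The mutant libraries were above every other library of the series, whose highest value was 2.56 TPM, and the log2 change was 0.49 (SE 0.13, adjusted p = 0.00396). Without replicate 1 it was 0.46 (SE 0.14) and called, and against Cadenza it was 0.25 and not called. TaBSU1-D (TraesCS1D03G0207300) had 5.24, 5.39 and 4.72 TPM in tabri1-a.1bd, against 4.46, 3.76, 4.26 and 3.52 TPM in TaBRI1-NS. Its log2 change of 0.32 (SE 0.13, adjusted p = 0.0467) was not called without replicate 1 (0.31, SE 0.14), after median-of-ratios rescaling (0.20) or with a block on replicate number (0.33), and was lost in 22 of 36 alternative settings. Cadenza, at 4.51, 5.19, 5.31 and 5.05 TPM, did not overlap TaBRI1-NS for this gene either.

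TaBSK1-B (TraesCS4B03G0849600), a receptor-associated kinase gene, had 10.8, 9.77 and 8.88 TPM in tabri1-a.1bd, against 5.55, 5.94, 8.59 and 8.73 TPM in TaBRI1-NS. The groups just failed to overlap, the log2 change was 0.44 (SE 0.17, adjusted p = 0.045), and it was not called without replicate 1 (0.38, SE 0.20), after rescaling (0.32), or against Cadenza or tabri1-bd. The call was lost in 24 of 36 alternative settings. In tabri1-a.3bd, TaBSK1-B had 8.73, 10.7, 10.8 and 10.1 TPM (log2 change 0.48, adjusted p = 0.122). TaBSK1-D had 9.55, 8.49, 11.5 and 7.12 TPM there, against 6.08, 6.41, 7.4 and 6.32 TPM in TaBRI1-NS (0.44, adjusted p = 0.0731). TaBSK1-D was called there with replicate 1 of tabri1-a.1bd left out. In tabri1-a.1bd, TaBSK1-D had 7.96, 7.88 and 7.53 TPM, above all TaBRI1-NS libraries, and was not called with all libraries.

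The TaBIN2 copies, which encode the inhibitory kinase, were called in no comparison with all libraries. In tabri1-a.1bd, TaBIN2-A had 11, 16.2 and 15.4 TPM and TaBIN2-B had 14.2, 21.1 and 21.0 TPM, against 11.3 to 13.9 TPM and 13.5 to 16.5 TPM in TaBRI1-NS. Both passed the test without replicate 1 (log2 changes 0.34 and 0.45, SE 0.11 and 0.13). TaBIN2-D had 5.5 to 6.47 TPM in tabri1-a.1bd, against 4.32 to 6.55 TPM in TaBRI1-NS, and its change of 0.25 (SE 0.13) was called in neither fit.

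The 2 groups of the co-receptor gene TaBAK1 differed in level and in their values in tabri1-a.2bd. The chromosome 2 copies summed to 57.7 ± 8.8 TPM and the chromosome 7 copies to 2.29 ± 0.64 TPM in TaBRI1-NS (SD, n = 4). On chromosome 7, TaBAK1-B1 (TraesCS7B03G0504900) had 2.92, 1.85, 2.85 and 1.9 TPM in tabri1-a.2bd, while tabri1-a.1bd had 0.357, 0.879 and 2.33 TPM, against 0.811, 0.891, 1.86 and 1.01 TPM in TaBRI1-NS. TaBAK1-D1 had 1.26, 1.99, 1.46 and 1.57 TPM in tabri1-a.2bd, against 0.847, 0.841, 1.2 and 0.943 TPM in TaBRI1-NS. Neither was called in tabri1-a.2bd with all libraries (log2 changes 0.83 and 0.50, SE 0.28 and 0.17, adjusted p = 0.0818 and 0.0698). Both were called there without the tabri1-a.1bd libraries, with the same changes and an SE of 0.22 and 0.14. Against Cadenza, whose TaBAK1-B1 libraries had 1.72, 1.37, 2.45 and 1.84 TPM and overlapped those of tabri1-a.2bd, the changes were 0.29 and 0.27 and called in neither fit.

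On chromosome 2, TaBAK1-B2 (TraesCS2B03G0887400) had 20.9, 22.5, 22.2 and 20.3 TPM in tabri1-a.2bd, against 26.7, 24.9, 32.1 and 31.0 TPM in tabri1-a.3bd, while TaBRI1-NS had 25.5, 24.6, 29.6 and 23.7 TPM. All 4 tabri1-a.2bd libraries were below all of tabri1-a.3bd and of TaBRI1-NS. Against TaBRI1-NS the log2 change was -0.26 (SE 0.11) and not called, and in the fit without the tabri1-a.1bd libraries it was the same size (SE 0.08) and called. TaBAK1-A2 and TaBAK1-D2 likewise had tabri1-a.2bd libraries below all tabri1-a.3bd libraries, at 11.9 to 14.3 TPM against 17 to 19.6 TPM, and at 12.3 to 14.8 TPM against 15.7 to 20.7 TPM. In tabri1-a.1bd the A2, B2 and D2 copies were highest in replicate 1, at 28.3, 29.3 and 21.4 TPM, against 11.8 to 23.1 TPM in replicates 2 and 3. Without replicate 1, TaBAK1-B2 was called lower (log2 change -0.28, SE 0.11) and TaBAK1-D1 higher (0.43, SE 0.17) in tabri1-a.1bd than in TaBRI1-NS, and neither was called with it.

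**Figure D5:**
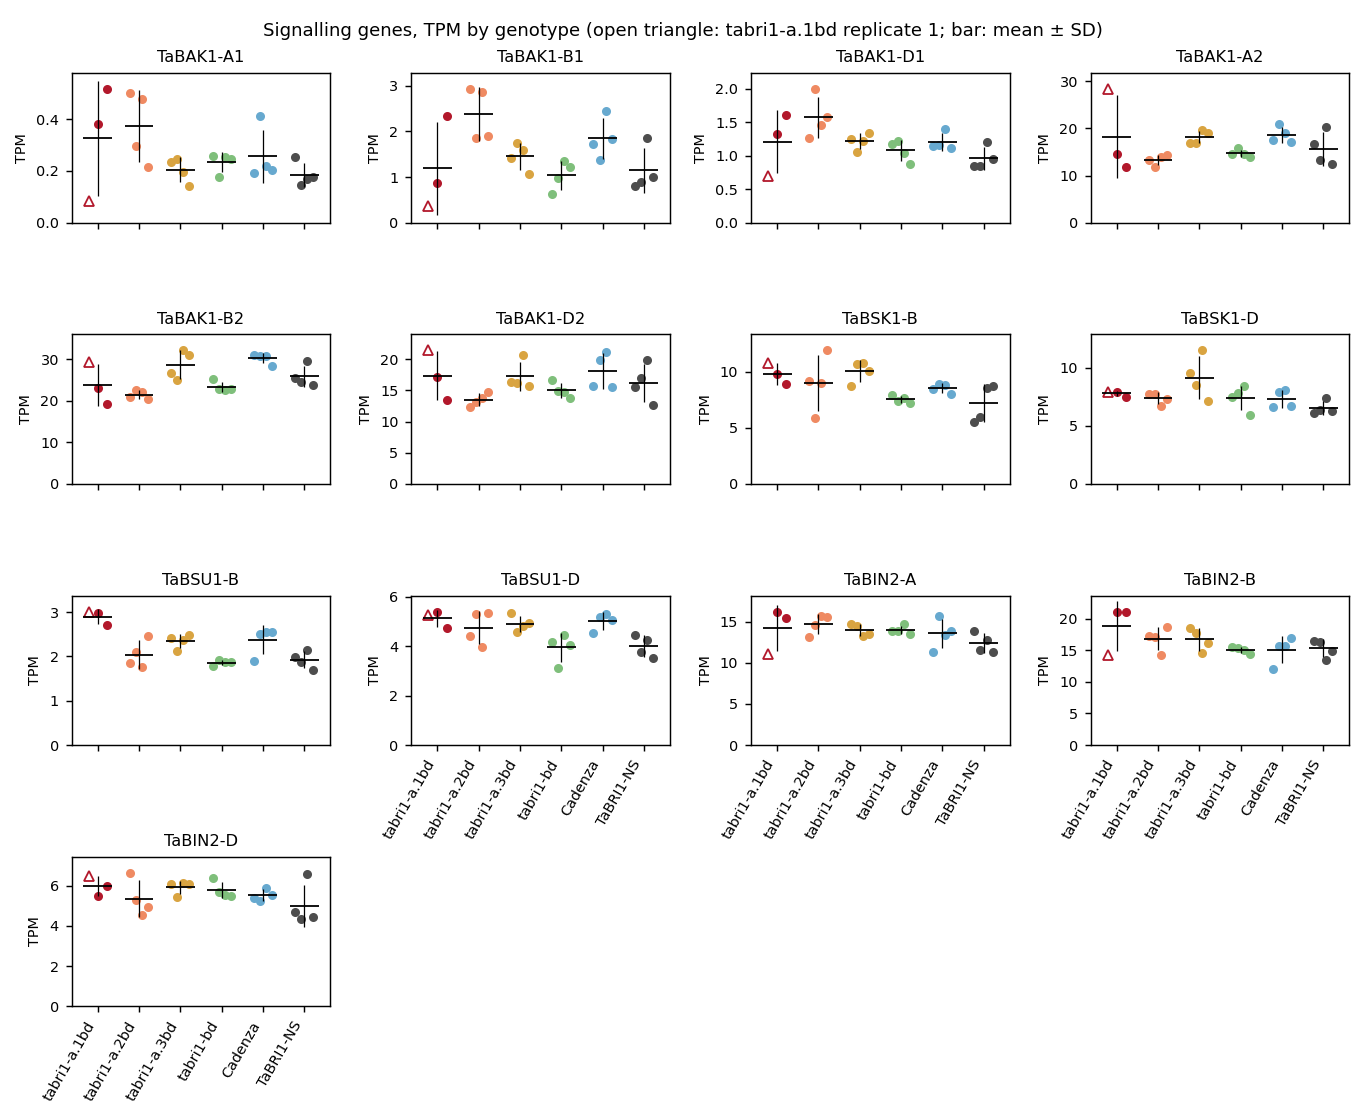
TPM of the 13 signalling genes (y axes, from 0) in each library of the 6 genotypes (x axis); horizontal bars are means, vertical bars are SD, and the open triangle is replicate 1 of tabri1-a.1bd. TaBSU1-B sits at 2.71 to 3.01 TPM in tabri1-a.1bd and at 2.56 TPM or below elsewhere, and TaBAK1-B2 at 20.3 to 22.5 TPM in tabri1-a.2bd lies below tabri1-a.3bd.

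Comparing the triple mutants with each other, 10 of 30 members were called in tabri1-a.1bd against tabri1-a.2bd, where 39.6% of all genes were. Of these, 2 were higher (19.4% of all genes) and 8 were lower (20.2% of all genes), and 7 members did not overlap (36.1% of all genes). Without replicate 1 there were 8 calls (33.9% of all genes), 5 higher (17.8%) and 3 lower (16.1%), so the balance turned round. TaHYD1-A (log2 change 0.39) and TaBSU1-B (0.43) were higher in tabri1-a.1bd. TaDWF5-A (-0.58), TaDET2-A (-0.95), TaDET2-D (-1.66), TaD2-A (-1.19), TaD2-B (-0.73), TaBAK1-B1 (-0.92) and the TaDWF1 pair given above were lower. Without replicate 1, TaDET2-A (-0.59), TaD2-B (-0.19), TaBAK1-B1 (-0.52) and both TaDWF1 copies were not called, while TaD11-A (0.88), TaD11-D (1.65) and TaD2-D (0.46) were called higher. With a block on replicate number TaD2-B was not called (-0.71). In tabri1-a.2bd against tabri1-a.3bd, where 2.62% of all genes were called, TaBAK1-B2 was the 1 member called, and it was lower in tabri1-a.2bd (log2 change -0.40, SE 0.11, adjusted p = 0.0487). That call was lost in 25 of 35 alternative settings. The libraries of these mutants did not overlap for 5 members (9.88% of all genes).

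With Cadenza as the comparator and all libraries there were 7 calls in tabri1-a.1bd (1 higher, 6 lower, 38% of all genes) and 2 for tabri1-a.2bd (5.58%). There were 0 by limma for tabri1-a.3bd (1.14%) and 0 for tabri1-bd (3.66%), with 2 and 5 members at an unadjusted p below 0.05. Without replicate 1 of tabri1-a.1bd there were 13 calls against Cadenza in tabri1-a.1bd (8 higher, 5 lower). There were then 6 for tabri1-a.2bd, 0 for tabri1-a.3bd and 3 for tabri1-bd. TaDWF5-A (log2 change -0.47, adjusted p = 0.0193) and TaBAK1-B2 (-0.49, adjusted p = 0.00842) were the 2 members called with all libraries, both lower in tabri1-a.2bd than in Cadenza. In the fit without the tabri1-a.1bd libraries 6 were called, 3 lower (these and TaBAK1-A2) and 3 higher. The higher ones were TaDWF1-A, -B and -D (log2 changes 0.40, 0.52 and 0.46). TaDWF5-A had 12.0, 11.9, 13.6 and 11.3 TPM in tabri1-a.2bd and 16.4, 19.2, 18.3 and 14.7 TPM in Cadenza, without overlap. With tabri1-bd as the comparator there were 7 calls in tabri1-a.1bd (44.9% of all genes). There were 0 by limma for tabri1-a.2bd (7.59%) and 0 for tabri1-a.3bd (2.28%), with 3 and 6 members at an unadjusted p below 0.05. Without replicate 1 of tabri1-a.1bd the counts against tabri1-bd were 11 in tabri1-a.1bd (8 higher, 3 lower), 2 for tabri1-a.2bd and 0 for tabri1-a.3bd. The shares of all genes called without replicate 1 are not given here for these 2 comparators. With all libraries, TaHYD1-A, TaDWF5-A, TaDET2-D, TaD2-A and TaD2-B were called in tabri1-a.1bd against each of TaBRI1-NS, Cadenza and tabri1-bd, in the same direction each time. The same tabri1-a.1bd libraries entered each of these comparisons, so they are not independent. Without replicate 1, TaD2-B was not called against TaBRI1-NS (log2 change -0.19).

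The other 45 genes of the pathway list are given for their counts. Of the 38 tested, 27 were called in tabri1-a.1bd against TaBRI1-NS (20 higher, 7 lower), where 43.8% of all genes were. With all libraries 11 were called for tabri1-a.2bd (7.46% of all genes) and 4 for tabri1-a.3bd (2.3%), all of them higher. Without replicate 1 of tabri1-a.1bd there were 28 calls in tabri1-a.1bd (23 higher, 5 lower, 41.3% of all genes), 19 for tabri1-a.2bd (17 higher, 2 lower, 14%) and 9 for tabri1-a.3bd (all higher, 5.77%). For tabri1-bd the count was 0 by limma, with 0 at an unadjusted p below 0.05. Their median log2 change in tabri1-a.1bd was 0.51, against 0.16 for the 30 members. It was 0.42 against 0.11 for tabri1-a.2bd, 0.30 against 0.16 for tabri1-a.3bd and 0.11 against -0.01 for tabri1-bd. No test of the difference between the lists was made.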

How the data were processed

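Paired-end reads were trimmed with Trimmomatic 0.39, mapped to IWGSC RefSeq v2.1 with STAR 2.7.8a and counted with HTSeq 0.11.3, and the authors deposited the values as TPM per gene. How strand was handled, and how reads matching several homoeologues were handled, is not given in the sources used here, so values of near-identical copies are uncertain. No name table pairs the identifiers with leaf marker genes, so the labelled tissue was not checked by markers.

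Members came from the study's pathway list. Members, lists and tests were chosen with earlier results of these data known. All 31 members are named. Each library's value in tabri1-a.1bd and TaBRI1-NS is given for members called between these genotypes with all libraries. For other calls, values are not given for every library compared. From the deposited TPM, limma 3.58.1 in R 4.3.3 (lmFit, and eBayes with trend and robust) was fitted once to log2(TPM + 0.5) of all 23 libraries, with 83495 genes of at least 0.5 TPM in at least 3 libraries. Its tests are two-sided, with Benjamini-Hochberg adjustment over all these genes, no fold threshold, and no use of the replicate numbers. The p-values measure the spread between these pooled samples. Whole reads were recovered for 94748 of 94749 genes above 0 in at least 8 libraries (99.999%, within 0.05 of a whole number) and for 98.26% of genes tested. Limma voom was run on these reads as an alternative. Reads are not independent molecules, so read counts show counting error only. Fits were tested on simulated data whose spread per gene was the same in every genotype, so the wider spread within tabri1-a.1bd was not covered. Alternatives were other pseudocounts (0.1 and 1), filters, scaling, designs, controls and the leaving out of libraries, with libraries of genotypes outside a comparison added after seeing the data.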

Additional observations from a re-analysis of the deposited data

Results flagged for a closer look

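In each genotype with 4 libraries, the library farthest from the rest was compared with the others for every member. Of 155 such groups, 11 had a library whose gap to its nearest neighbour, as a share of the group's range, was above Dixon's critical value, and chance gives about 1 in 20. In the mutants, TaBAK1-D2 had 20.7 TPM in tabri1-a.3bd replicate 3 against 15.7 to 16.3 TPM in its other replicates, TaBIN2-D had 5.43 TPM in tabri1-a.3bd replicate 2 against 6.06 to 6.12 TPM, TaBAK1-B2 had 25.2 TPM in tabri1-bd replicate 1 against 22.6 to 22.8 TPM, and TaBAK1-A1 had 0.176 TPM in tabri1-bd replicate 2 against 0.246 to 0.259 TPM. In Cadenza, replicate 1 was low for TaDWF1-A (19.5 TPM against 27.2 to 27.5 TPM) and TaBSU1-B (1.9 TPM against 2.5 to 2.56 TPM), replicate 4 was high for TaHYD1-B (2.99 TPM against 2.37 to 2.4 TPM) and low for TaBAK1-B2 (28.4 TPM against 30.8 to 31.1 TPM), and replicate 2 was high for TaBAK1-A1 (0.41 TPM against 0.191 to 0.218 TPM). In TaBRI1-NS, replicate 3 was high for TaD2-A (29.9 TPM against 25.3 to 26.0 TPM) and TaBIN2-D (6.55 TPM against 4.32 to 4.67 TPM). The 3 tabri1-a.1bd libraries are too few for this comparison.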

How the results depend on the processing

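In tabri1-a.1bd against TaBRI1-NS, 9 members were called. The count was 2 with a change of over 2-fold required, 2 in a separate fit of the genotypes compared and 2 with limma array weights. Those weights were 0.079, 0.063 and 0.438 for tabri1-a.1bd replicates 1, 2 and 3. Their estimation stopped before its convergence tolerance, so every count with array weights is uncertain. Leaving out each library in turn gave 6 to 15, the highest without tabri1-a.1bd replicate 1. For tabri1-a.2bd, 0 became 2 in the separate fit, 7 with array weights, 1 with voom on recovered reads, 7 without the 3 tabri1-a.1bd libraries, 2 with Cadenza as the control and 0 to 6 on leaving out a library, the highest without replicate 1 of tabri1-a.1bd, and 2 without its replicate 3. In tabri1-a.3bd, 0 became 1 with array weights, 2 without the tabri1-a.1bd libraries and 0 to 2 on leaving out a library, the highest without replicate 1 of tabri1-a.1bd, and 1 with replicate 4 of tabri1-a.3bd left out. Over all genes, the share called for tabri1-a.2bd was 7.46% with all libraries, 14.8% without the tabri1-a.1bd libraries and 14% without their replicate 1. For tabri1-a.3bd these shares were 2.3%, 6.17% and 5.77%. With Cadenza as the control the share for tabri1-a.2bd was 5.58%. Shares for the other settings are not given here, so those counts cannot be set against all genes. In tabri1-bd and Cadenza against TaBRI1-NS the count was 0 in every setting. In tabri1-a.1bd against tabri1-a.2bd, 10 became 3 over 2-fold, 3 in the separate fit, 1 with array weights and 7 to 14 on leaving out a library. The call in tabri1-a.2bd against tabri1-a.3bd was lost in 25 of 35 settings, with 0 without a filter, rescaled, over 2-fold, in the separate fit and with voom, 2 without the tabri1-a.1bd libraries and 0 to 2 on leaving out a library. TaD2-D in tabri1-a.1bd against tabri1-a.2bd turned from a log2 change of -0.05 to 0.46, which was called, without tabri1-a.1bd replicate 1, the range on leaving out a library being -0.33 to 0.46. Pseudocounts, the filter of 2 TPM and high-confidence models alone kept these counts within 1.5 times. Apart from the threshold and the libraries left out, the cause of these differences was not tested. Rescaling shifted the median log2 change of all genes in tabri1-a.1bd from 0.10 to 0.00.

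The replicate numbers are shared across genotypes, but deviations of same-numbered libraries from their group means correlated at a median r of 0.015 (-0.131 to 0.11, 55 pairs), against -0.005 for different numbers. A replicate block changed the counts of called members to 1 in tabri1-a.2bd against TaBRI1-NS and to 0 in tabri1-a.2bd against tabri1-a.3bd, and to 8 in tabri1-a.1bd against TaBRI1-NS, where TaD2-B and TaBSU1-D were lost and TaHYD1-B (0.55) was gained. Against tabri1-a.2bd, tabri1-a.1bd had 9 with the block, with TaD2-B lost. Depth limits the TaD11, TaDET2, TaBAK1-A1 and TaBAK1-B1 values, which rest on 3 to 331 reads a library.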

Other observations

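Levels in TaBRI1-NS ordered the 31 genes over a wide span. TaDWF1-B stood highest at 48.4 ± 3.7 TPM, followed by TaHYD1-D at 38.0 ± 1.4 TPM and TaDWF5-B at 31.0 ± 2.8 TPM (SD, n = 4 each). TaD2-A at 26.7 ± 2.2 TPM and TaDWF1-A at 26.6 ± 2.5 TPM came next and differed by less than the spread between replicates. At the low end TaD11-A had 0.728 ± 0.107 TPM, TaD11-B 0.401 ± 0.120 TPM and TaBAK1-A1 0.185 ± 0.046 TPM. The most abundant copy was the A copy for TaD2, the B copy for TaDWF5, TaDWF1 and TaBIN2, and the D copy for TaHYD1 and TaD11. The D copy of TaDET2 averaged 6.06 ± 2.27 TPM and the A copy 4.73 ± 0.99 TPM, which overlapped between libraries.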
